A study of Mus musculus with 4 samples.

Results

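The collagen genes of hair follicle stem cells are described here through the open chromatin regions that lie in or near them. All 41 collagen genes on the list matched a protein-coding mouse gene, and 39 of them were the nearest gene to at least 1 of 262 open regions, out of 15649 genes and 70877 regions assigned to genes in the whole data set. A region was assigned to a collagen gene when the summit of its peak lay in that gene, or within 100 kb of it with no other protein-coding gene nearer. The assay, ATAC-seq, tags DNA that a transposase can reach and sequences the tagged fragments. Cells came from back skin of 4 males aged 70 days, whose hair follicles were resting (second telogen). The 2 wild-type (WT) mice carried the alleles NFIBfl/fl;NFIXfl/fl;R26-YFPfl/fl and no Cre, so both transcription factor genes were floxed but intact. The 2 double-knockout (dKO) mice carried the same floxed alleles together with Sox9-CreER, a Cre driven by the Sox9 gene and activated by tamoxifen. Cells negative for DAPI and Sca-1 and positive for integrin α6 and CD34 were sorted from all mice, and dKO cells were also positive for YFP, which reports Cre activity. Both mice of a genotype are represented by 1 peak list, which allows no test between the genotypes, and intervals given for shares below are Wilson 95% intervals that cover counting error only. Where a count is 0, the upper limit given is 3 counts of the total.

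Collagens are trimeric proteins of the extracellular matrix whose chains wind into a triple helix. Fibrillar collagens such as types I, III and V build the fibres of the dermis, type IV forms the sheet of the basement membrane on which epidermal and follicle cells rest, and type VII anchors that sheet to the dermis below. Type XVII, encoded by Col17a1, is a transmembrane collagen of hemidesmosomes, the junctions that hold basal keratinocytes and hair follicle stem cells to the basement membrane. NFIB and NFIX are members of the nuclear factor I family, which binds the core motif TTGGC and the palindrome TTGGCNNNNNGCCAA. Chromatin that is open near a collagen gene does not show that the gene is transcribed, and no RNA was used here.

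The lists held 68192 WT and 63545 dKO peaks after removal of mitochondrial peaks. The median WT peak had a summit pileup of 73.0 reads or fragments, and the median dKO peak 38.0, and the lowest local background was 5.29 and 2.73, a ratio of 1.94, so the WT list rested on more reads. More reads, the sort without a YFP gate and the WT genotype cannot be told apart for any region present in the WT list alone. The YFP gate and the dKO genotype likewise cannot be told apart for regions of the dKO list alone. Over all regions assigned to genes, 21.2% were in the WT list alone and 12.8% in the dKO list alone. All 10 hair follicle stem cell marker genes had open regions, and 107 of these regions were in both lists. Of the rest, 28 were in the WT list alone (16.9%, interval 11.9% to 23.3%) and 31 in the dKO list alone (18.7%, interval 13.5% to 25.3%). The 5 of these genes with a promoter window were open there in both lists. Among 8 dermal fibroblast markers, 7 had 21 regions in all, of which 12 were in both lists. The WT list alone held 8 (38.1%, interval 20.8% to 59.1%) and the dKO list alone 1 (4.76%). Of 4 fibroblast markers with a promoter window, only Vim was open there, in both lists, and Lum had no region. Immune markers had 7 regions (2 WT-only, 28.6%, and 3 dKO-only, 42.9%) and adipocyte markers 3, all at Plin1 and in both lists. None of 4 immune or 3 adipocyte promoters was open in either list. Endothelial markers had 40 regions (10 WT-only, 8 dKO-only), with 3 of 4 promoters open in both lists. Melanocyte markers had 43 (10 WT-only, 23.3%, and 5 dKO-only, 11.6%), with 2 of 3 genes open at a promoter window in WT and 1 in dKO. The endothelial marker Egfl7 and the melanocyte marker Mitf also had promoter windows with no peak. Ly6a, which encodes the Sca-1 antigen removed by the sort, had 1 region, in the WT list alone.

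Promoter sequences 300 bases long, from 250 before to 50 after the gene start, were given by RefSeq for 32 of the 41 genes, as 35 windows on GRCm38.p6. No window was given for Col1a1, Col2a1, Col4a3, Col5a2, Col9a3, Col12a1, Col14a1, Col22a1 and Col26a1. Peaks of both lists lay over 18 of the 35 windows (51.4%, against 55.5% of all 21262 windows) and no peak over 12 (34.3%, against 41.8%). A WT peak alone covered part of 2 windows (5.71%, interval 1.58% to 18.6%, against 1.60% of all windows), those of Col13a1 and Col6a1. A dKO peak alone covered part of 3 (8.57%, interval 2.96% to 22.4%, against 1.15% of all windows), those of Col24a1, Col7a1 and Col9a2. These 5 are printed because they are the collagen promoters that a peak of 1 list alone covered, 5′ to 3′ on the gene's strand, with the bases under the peak in capitals.
Col13a1 promoter window: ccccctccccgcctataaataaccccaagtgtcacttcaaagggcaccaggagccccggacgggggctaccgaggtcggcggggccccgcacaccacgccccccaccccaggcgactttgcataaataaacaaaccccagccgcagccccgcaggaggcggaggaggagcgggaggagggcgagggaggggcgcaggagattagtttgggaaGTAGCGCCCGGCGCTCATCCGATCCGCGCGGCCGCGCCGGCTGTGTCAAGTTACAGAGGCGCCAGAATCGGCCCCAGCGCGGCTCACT
Col6a1 promoter window: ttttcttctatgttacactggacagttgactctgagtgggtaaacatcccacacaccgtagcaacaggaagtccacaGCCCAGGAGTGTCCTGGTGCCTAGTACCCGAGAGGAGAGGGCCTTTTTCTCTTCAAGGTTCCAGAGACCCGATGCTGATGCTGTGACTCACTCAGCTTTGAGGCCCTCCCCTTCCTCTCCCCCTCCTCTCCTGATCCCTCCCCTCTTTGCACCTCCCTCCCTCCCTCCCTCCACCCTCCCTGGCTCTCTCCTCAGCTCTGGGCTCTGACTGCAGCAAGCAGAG
Col24a1 promoter window: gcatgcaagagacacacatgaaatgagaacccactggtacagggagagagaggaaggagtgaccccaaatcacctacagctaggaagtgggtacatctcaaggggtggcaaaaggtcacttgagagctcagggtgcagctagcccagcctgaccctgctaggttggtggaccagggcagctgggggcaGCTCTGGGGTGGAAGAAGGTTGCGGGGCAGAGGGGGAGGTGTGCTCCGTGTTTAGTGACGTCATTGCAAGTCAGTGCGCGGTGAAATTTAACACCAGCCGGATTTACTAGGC
Col7a1 promoter window: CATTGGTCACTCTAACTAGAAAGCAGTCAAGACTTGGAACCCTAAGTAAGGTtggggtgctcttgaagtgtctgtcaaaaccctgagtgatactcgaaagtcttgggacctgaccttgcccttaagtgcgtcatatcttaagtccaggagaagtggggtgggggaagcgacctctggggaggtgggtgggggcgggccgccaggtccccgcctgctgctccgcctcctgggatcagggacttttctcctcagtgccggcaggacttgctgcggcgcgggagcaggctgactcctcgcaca
Col9a2 promoter window: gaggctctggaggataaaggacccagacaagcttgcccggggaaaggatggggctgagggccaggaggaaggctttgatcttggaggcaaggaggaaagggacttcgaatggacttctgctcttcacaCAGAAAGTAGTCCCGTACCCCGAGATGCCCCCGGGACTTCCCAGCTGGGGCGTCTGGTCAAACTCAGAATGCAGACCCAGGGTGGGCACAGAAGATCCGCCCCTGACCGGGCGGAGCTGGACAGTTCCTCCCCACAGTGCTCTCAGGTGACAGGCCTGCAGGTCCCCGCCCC

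The Col13a1 window (chr10:61979059-61979358, minus strand) had 88 of its bases under a WT peak, at its downstream end, and Col13a1 encodes a transmembrane collagen of cell adhesion sites. That peak had a pileup of 23, a fold of 3.81 over local background and a −log10 q of 6.75, all 3 being the authors' values, as are those of the peaks below. The Col6a1 window (chr10:76725995-76726294, minus strand) had 223 bases under a WT peak. Its region, chr10:76725542-76726217, was in both lists, with a WT −log10 q of 10.5 and a dKO −log10 q of 4.60, but the dKO peak ended inside the gene before the window began. Of the dKO peaks, the one at Col24a1 (window chr3:145292222-145292521, plus strand) covered the 112 bases around the gene start, with a pileup of 15 and a −log10 q of 5.50. The one at Col9a2 (window chr4:121039316-121039615, plus strand) covered 172 bases, with a pileup of 17 and a −log10 q of 7.07. At Col7a1 (window chr9:108953336-108953635, plus strand), the gene of the anchoring fibril collagen, the peak covered the first 52 bases, with a pileup of 60 and a −log10 q of 11.6. It was the only region assigned to Col7a1, and the nearest WT peak, 2.76 kb away, belonged to a region in both lists assigned to the neighbouring gene Uqcrc1. The 5 peaks over these windows, of which that of Col6a1 belonged to a shared region, had −log10 q between 5.50 and 11.6. These were below the medians of regions in both lists over all genes, 54.5 among WT and 26.1 among dKO peaks. The nearest peak of the other list was 0.930 kb away at Col9a2, 1.23 kb at Col13a1 and 23.9 kb at Col24a1.

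The NFI core motif TTGGC, searched on both strands and so also read as GCCAA, was in 14 of the 35 collagen windows (40.0%) and in 47.9% of all 21262 windows. None of the 5 windows printed above held it. Peaks of both lists lay over 9 of the 14, and over 5918 of the 10182 windows with the motif among all genes. The Col6a5 window held the core motif 5 times, the most of any collagen window, and had no peak in either list. The palindrome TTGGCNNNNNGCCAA, which contains the core motif on both strands, was in 0 of 35 (a count of 0 allows up to 8.57%) and in 7 of all windows (0.0329%). The Col4a1 window (chr8:11312777-11313076, minus strand) held 4 core motifs and lay wholly under a peak in both lists; it is printed with the core motifs in capitals because Col4a1 and Col4a2, which encode the main chains of the basement membrane sheet, share this stretch head to head.
Col4a1 promoter window: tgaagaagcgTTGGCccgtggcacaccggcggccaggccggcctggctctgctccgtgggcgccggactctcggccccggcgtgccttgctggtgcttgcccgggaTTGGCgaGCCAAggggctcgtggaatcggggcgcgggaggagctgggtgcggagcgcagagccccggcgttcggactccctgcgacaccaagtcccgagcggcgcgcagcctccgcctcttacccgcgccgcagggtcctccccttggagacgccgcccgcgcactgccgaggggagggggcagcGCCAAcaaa

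The common start of Col4a1 and Col4a2 was open as 1 region, chr8:11312242-11314159, with a WT pileup of 356, a dKO pileup of 215 and a −log10 q of 151 and 119. The window of Col4a2 (chr8:11312555-11312854, plus strand) overlapped that of Col4a1 and held 1 core motif. The start shared by Col4a3 and Col4a4, the next pair of type IV chains, was likewise open in both lists, as the region chr1:82586255-82587599. A match to these letters is a description of the window and not evidence of binding.

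Of the 262 collagen regions, 156 were open in both lists and are called shared (59.5%, interval 53.5% to 65.3%), against 66.0% of all regions assigned to genes. WT-only regions, those with a WT peak and no overlapping dKO peak, numbered 70 (26.7%, interval 21.7% to 32.4%), against 21.2% of all 70877 regions. dKO-only regions numbered 36 (13.7%, interval 10.1% to 18.4%), against 12.8%. The interval of the WT-only share began just above the background, and that of the dKO-only share included it. Regions of 1 gene are not independent, which these intervals leave out. The background is also not matched for position. Gene ends, within 1 kb of either end of a gene, held 23 of the 262 collagen regions and 12456 of all 70877. Over all genes only 6.04% of gene-end regions were WT-only, against 8.70% at collagen genes. Within gene bodies the collagen WT-only share showed no excess, with 25% against 25.5% over all genes. Outside the genes it was 36.0% (interval 26.1% to 47.3%) against 22.8%. The excess was thus seen outside the genes and not within gene bodies. Whether the share over all 262 regions exceeds a background matched for position was not tested. Since the WT list was deeper, the WT peaks were also scaled down to the dKO background and filtered again, which left 63 of the 70 WT-only regions and a share of 24.7% (interval 19.8% to 30.3%) against a background of 19.6%. With genes limited to 20 kb the share was 24.7% (interval 19.5% to 30.7%) against 21.1%, so the excess was then within counting error.

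By gene, 23 of the 39 collagen genes had more WT-only than dKO-only regions (59.0%, against 34.2% of all genes with a region), and 12 had more dKO-only regions (30.8%, against 16.5%). Col4a2, Col9a3, Col22a1 and Col25a1 had equal numbers. Collagen genes had a median of 5 regions and all genes a median of 2.00, and a gene with more regions has more chances to differ. Among genes with at least 5 regions the shares were 71.4% and 23.8% of 21 collagen genes, and 56.8% and 25.9% of 4475 genes. Density differed widely between the genes. Col17a1 held 21.9 regions per 100 kb of gene body, Col18a1 14.9, Col8a2 14.5 and Col2a1 13.7, while Col25a1 held 0.238 and Col22a1 0.282. Col6a3, Col6a5 and Col7a1 held 0, as their regions lay outside the gene body. Col10a1, a collagen of growth plate cartilage, and Col11a1, a fibrillar collagen of cartilage, had no region. The plot of region counts by gene shows this spread.

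**Figure D1:**
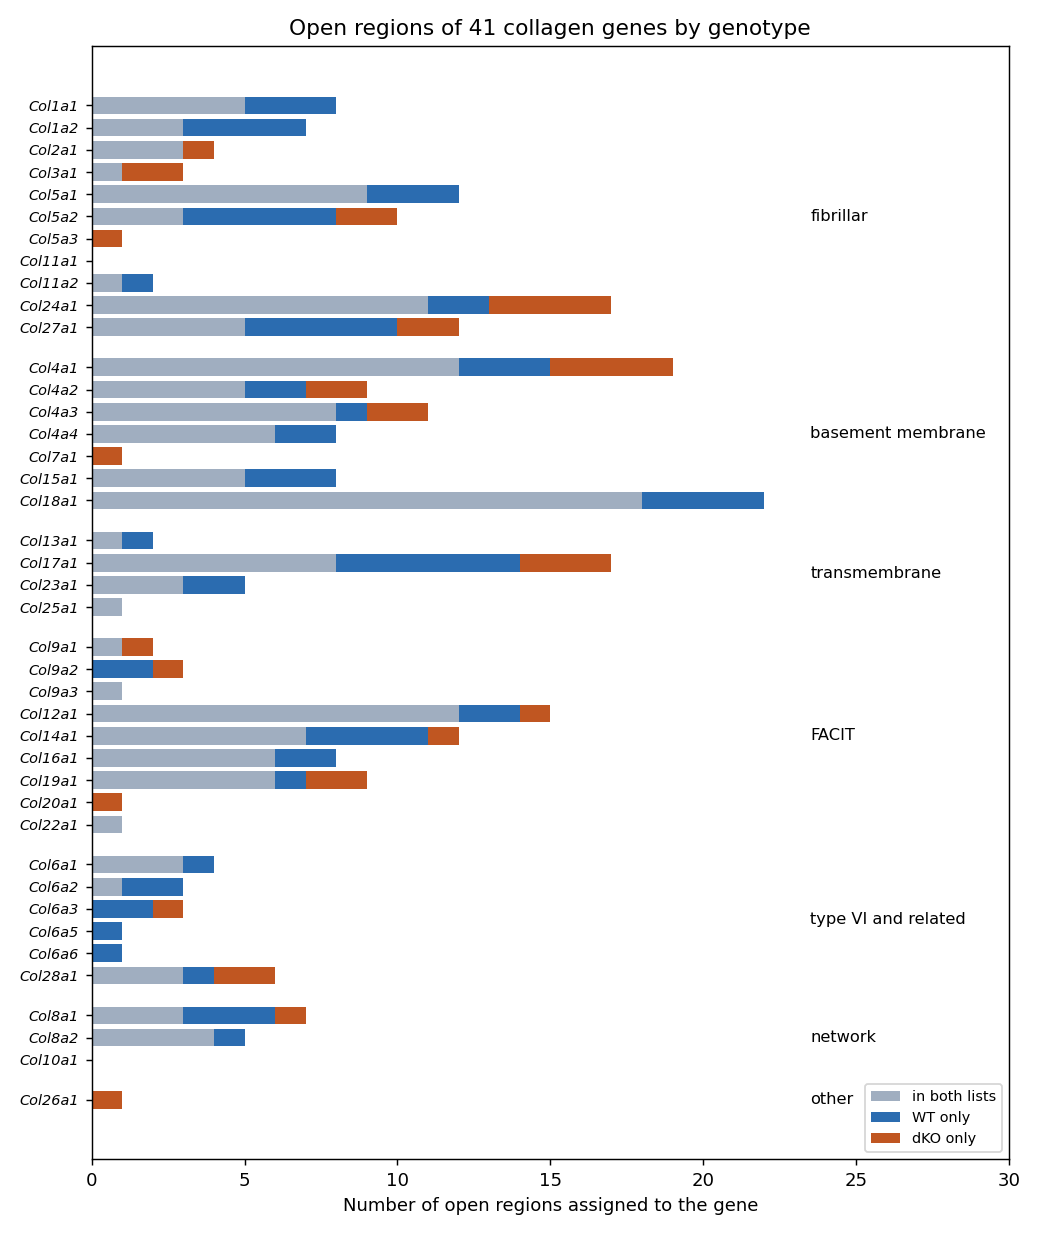
Open regions assigned to each of the 41 collagen genes, grouped by structural class. The horizontal axis counts regions, and bar colours give regions in both lists (grey), in the WT list alone (blue) and in the dKO list alone (orange). Col18a1 has the longest bar, with 22 regions, and Col11a1 and Col10a1 have none.

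Fibrillar collagens had 76 regions over 10 genes, of which 23 were WT-only (30.3%, interval 21.1% to 41.3%), 12 were dKO-only (15.8%, interval 9.27% to 25.6%) and 41 were in both lists. Basement membrane collagens had 78 regions over 7 genes, with 15 WT-only (19.2%, interval 12.0% to 29.3%), 9 dKO-only (11.5%, interval 6.19% to 20.5%) and 54 in both. Transmembrane collagens had 25 regions over 4 genes, with 9 WT-only (36.0%, interval 20.2% to 55.5%), 3 dKO-only (12.0%, interval 4.17% to 30.0%) and 13 in both. The fibrillar and transmembrane WT-only shares lay above the background of 21.2% and the basement membrane share below it, but the 3 intervals overlapped one another and each included the background, so a difference between these classes was not detectable at these counts. The remaining classes had 52 regions for the FACIT collagens, which sit on the surface of fibrils (11 WT-only, 7 dKO-only), 18 for type VI and related collagens (8 and 3) and 12 for network collagens (4 and 1). In the type VI group the WT-only share was 44.4% (interval 24.6% to 66.3%), the highest of the classes. The comparison of shares by class shows how wide these intervals are.

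**Figure D2:**
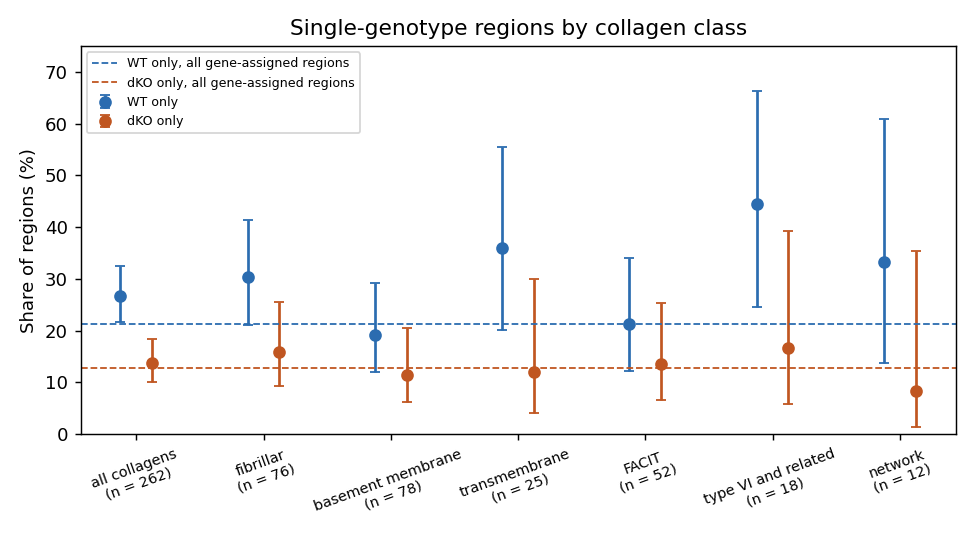
Share of regions present in a single list, in percent, for all collagen genes and for 6 structural classes. Points are shares, bars are Wilson 95% intervals, and dashed lines mark the shares over all regions assigned to a gene, 21.2% for WT only and 12.8% for dKO only; the class intervals overlap one another.

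Among the fibrillar genes, the 2 chains of type I collagen, the main protein of dermal fibres, had regions in both lists or in the WT list alone. Col1a1 had 3 WT-only and 5 shared regions and Col1a2 had 4 and 3. So 7 of 15 were WT-only (46.7%, interval 24.8% to 69.9%, against 21.2% over all genes). The dKO-only count was 0, which allows a share of up to 20% and so includes the 12.8% over all genes. The start of Col1a1 was open in both lists, at chr11:94936168-94938056, with a −log10 q of 93.2 in WT and 33.2 in dKO, and so was the start of Col1a2, at chr6:4505317-4506972, with 68.6 and 16.9. Both genes are strongly used by fibroblasts, whose markers had a WT-only share of 38.1% over 21 regions, and the part of such cells was not tested. All 7 WT-only regions lay outside the genes. Those of Col1a2 were 97.7, 88.3, 86.3 and 21.6 kb upstream, and the nearest, chr6:4483622-4484958, was the strongest, with a WT pileup of 140, a −log10 q of 83.0 and no dKO peak within 20.4 kb. With a limit of 20 kb to the nearest gene, Col1a2 kept none of its WT-only regions and Col1a1 had 1 more WT-only than dKO-only region. The 3 WT-only regions of Col1a1 had −log10 q of 3.73, 4.24 and 33.9 and lay 8.35 to 25.3 kb from the gene.

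Col3a1, which encodes the type III chain of fine dermal fibres, went the other way, with 2 dKO-only regions, 1 shared region and no WT-only region. Its stronger dKO-only region, chr1:45315857-45316689, lay inside the gene 4.78 kb from the start, with a dKO pileup of 45 and a −log10 q of 30.2, and the nearest WT peak was 1.65 kb away, at the shared region. The other, chr1:45299689-45299917, lay 11.7 kb upstream with a −log10 q of 5.50. Type V collagen, which sets the diameter of type I fibrils, had 12 shared regions, 8 WT-only and 3 dKO-only ones. The WT-only, dKO-only and shared counts were 3, 0 and 9 at Col5a1, 5, 2 and 3 at Col5a2, and a single dKO-only region at Col5a3. The strongest WT-only region of Col5a1, chr2:27930504-27931331, had a WT pileup of 138 and a −log10 q of 44.4, and shared regions inside the same gene had WT pileups of up to 335.

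Col27a1, a fibrillar collagen known from cartilage, held the strongest WT-only region of any collagen gene. It lay at chr4:63278563-63279495, inside the gene and 63.6 kb from its start, with a WT pileup of 289, a fold of 12.3 and a −log10 q of 204, at percentile 88.9 of the WT list, and the nearest dKO peak was 17.7 kb away. A further WT-only region downstream of it, chr4:63290166-63291595, had a pileup of 80 and a −log10 q of 60.9. In all, 5 regions of Col27a1 were WT-only, 2 dKO-only and 5 shared, and 1 of its dKO-only regions, chr4:63302520-63303215, had a dKO pileup of 40 and a −log10 q of 25. A shared region near the far end of the gene, chr4:63323285-63324015, was the strongest of the gene in the dKO list, with a −log10 q of 95.6, against 62.3 in WT. Strong regions of the WT list alone and a weaker one of the dKO list alone thus lay in the same gene.

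Col24a1, another fibrillar collagen, had 11 shared regions, 2 WT-only and 4 dKO-only. Its shared region chr3:145498606-145499649, inside the gene 207 kb from the start, was the strongest fibrillar region in the WT list, with a pileup of 650 and a −log10 q of 538, and in the dKO list it had 178 and 145. The 4 dKO-only regions were weak, with pileups of 15 to 22 and −log10 q of 5.50 to 11.4, and 1 of them was the promoter region printed above. Of the others, a pair lay 45.4 and 35.7 kb upstream and the fourth inside the gene. With a limit of 20 kb to the gene, the WT-only and dKO-only counts of Col24a1 were equal. The remaining fibrillar genes had few regions, with 1 dKO-only and 3 shared at Col2a1 and 1 WT-only and 1 shared at Col11a2.

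**Figure D3:**
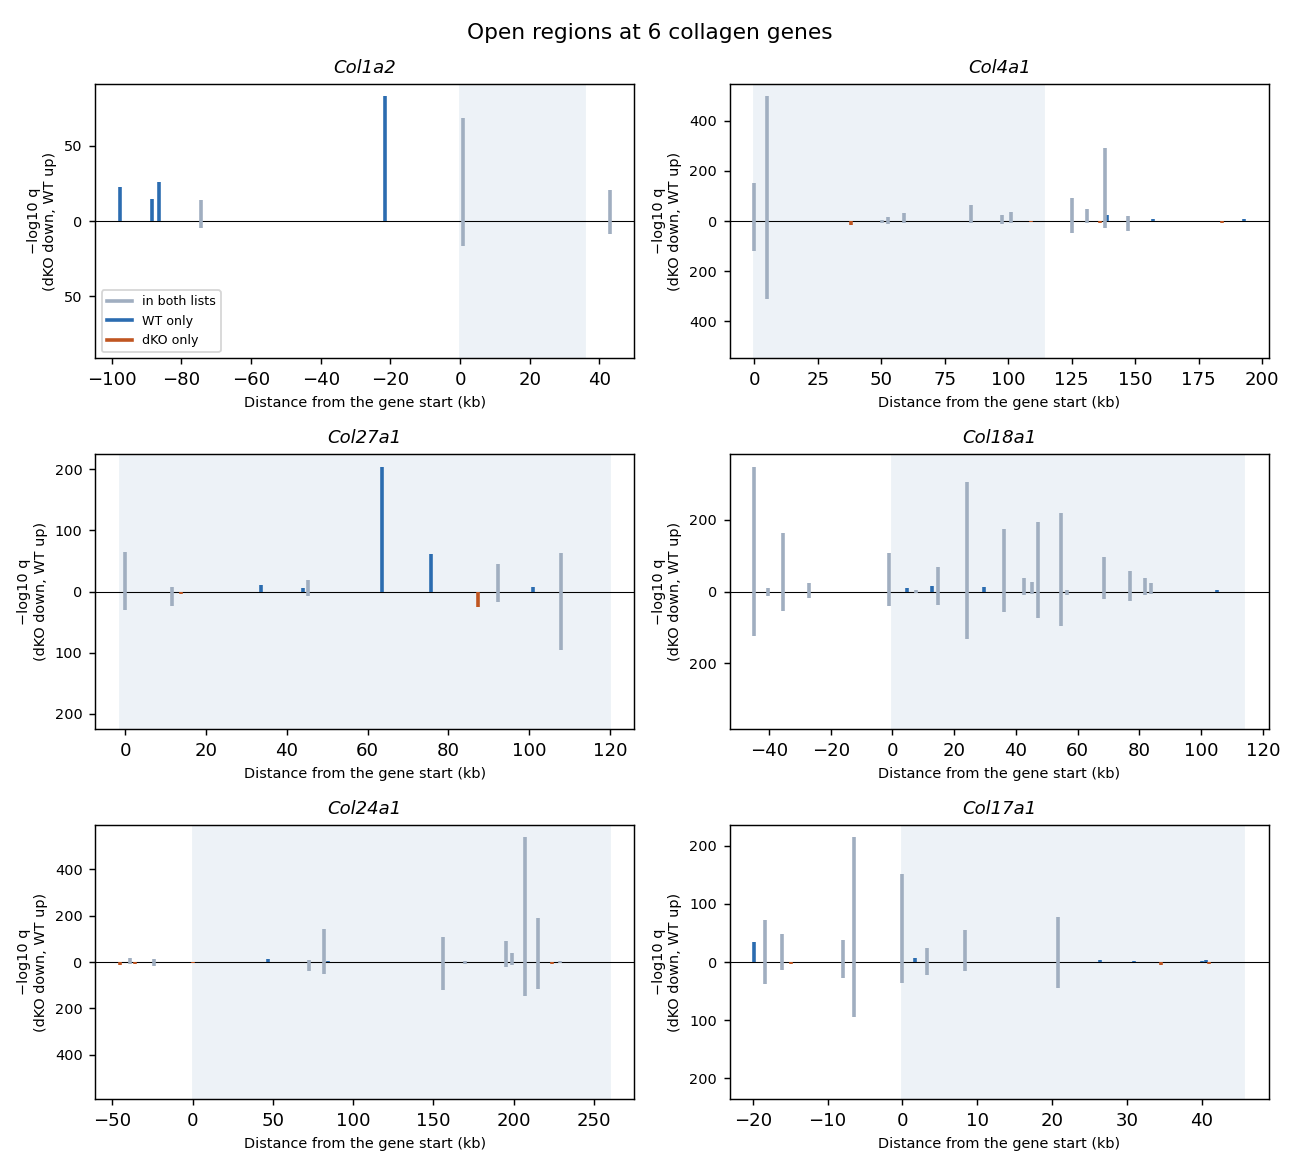
Open regions around 6 collagen genes, by distance from the gene start in kb, with the gene body shaded. Bars give the authors' −log10 q, upward in the WT list and downward in the dKO list, in grey for regions in both lists, blue for WT only and orange for dKO only; scales differ between panels, and the tall blue bars of Col1a2 and Col27a1 have −log10 q of 83.0 and 204.

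Of the basement membrane regions 69.2% were shared (interval 58.3% to 78.4%), close to the 66.0% over all genes, and Col7a1 had no shared region. The 4 type IV genes on the list had 47 regions, 8 WT-only, 8 dKO-only and 31 shared (66.0%). Col4a1 had 3, 4 and 12, Col4a2 had 2, 2 and 5, Col4a3 had 1, 2 and 8, and Col4a4 had 2, 0 and 6. The strongest region of the class was chr8:11306822-11308090, inside Col4a1 5.11 kb from its start, with pileups of 807 in WT and 419 in dKO and −log10 q of 498 and 309. Of the 7 single-list regions of Col4a1, 2 lay within 1 kb of a peak of the other list: the WT-only region chr8:11173283-11173598 had a pileup of 170 and lay 0.400 kb from a dKO peak, and the dKO-only region chr8:11176417-11176821 lay 0.963 kb from a WT peak. The other 5 lay 7.26 to 11.9 kb from one. The other dKO-only regions of Col4a1 had −log10 q of 3.35 to 15.2.

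Col18a1, whose product type XVIII collagen carries endostatin at its end, had the most regions of any collagen gene, with 18 shared, 4 WT-only and 0 dKO-only, a count of 0 that allows a share of up to 13.6%. Its shared regions reached a WT pileup of 597 and a −log10 q of 348 at chr10:77210614-77212059, 44.8 kb upstream, with 196 and 124 in dKO. The 4 WT-only regions all lay inside the gene and were weak, with −log10 q of 4.51 to 15.4. Its relative Col15a1 had 5 shared and 3 WT-only regions, with −log10 q of 4.89 to 7.75 for the latter.

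Among the transmembrane collagens, Col17a1, the hemidesmosome gene, had 8 shared, 6 WT-only and 3 dKO-only regions. The gene start was open in both lists, at chr19:47691423-47692732, with a pileup of 371 in WT and 89 in dKO and a −log10 q of 152 and 35.6. The strongest region of the class, chr19:47697043-47699096, lay 6.51 kb upstream, with pileups of 476 and 172 and −log10 q of 215 and 94.3. Of the 6 WT-only regions, 5 lay inside the gene with folds of 1.75 to 2.09 and −log10 q of 2.07 to 6.67, and the sixth, 19.8 kb upstream, had a fold of 2.93 and a −log10 q of 34.2. The 3 dKO-only regions had −log10 q of 3.21 to 5.13, and 1 of them lay 0.0710 kb from a WT-only region. Col17a1 had 3 more WT-only than dKO-only regions, but equal numbers when the WT list was scaled to the dKO background and 1 fewer with lists of equal length. Col23a1 had 2 WT-only and 3 shared regions, Col13a1 1 and 1, and Col25a1 a single shared region at its start.

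The FACIT genes Col12a1 and Col14a1, whose products bridge type I fibrils, had 12 and 7 shared regions, 2 and 4 WT-only regions and 1 dKO-only region each. The strongest region of this class was a shared one at Col14a1, chr15:55464409-55466060, with pileups of 333 in WT and 93 in dKO and −log10 q of 230 and 65.9. Col16a1 had 6 shared and 2 WT-only regions. Col19a1 had 6 shared, 1 WT-only and 2 dKO-only regions, and 1 of the latter, chr1:24612630-24612845, was the strongest dKO-only region of all collagen genes, with a dKO pileup of 143, a fold of 31.5 and a −log10 q of 168. It lay 24.8 kb from Col19a1, and 71 of its 216 bp overlapped the pseudogene Gm10222 (chr1:24612404-24612700), while its summit lay 52 bp beyond the pseudogene. Whether reads of similar sequence elsewhere in the genome add to it was not tested. Without it the collagen dKO-only share was 13.4% of 261 regions, and the strongest dKO-only regions were chr1:24310378-24311299 in Col19a1, with a pileup of 41 and a −log10 q of 30.6, and the Col3a1 region described above. Type IX genes had few regions, with 1 dKO-only and 1 shared at Col9a1, 2 WT-only and 1 dKO-only at Col9a2 and 1 shared at Col9a3. Col20a1 had 1 dKO-only region, and Col22a1 1 shared region.

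Type VI collagen forms beaded filaments around cells. Its 5 genes on the list had 12 regions, 7 of them WT-only (58.3%, interval 32.0% to 80.7%, against 21.2% over all genes), 1 dKO-only (8.33%, against 12.8%) and 4 shared. Col6a1 had 1 WT-only and 3 shared regions, Col6a2 had 2 and 1, and Col6a3 had 2 WT-only and 1 dKO-only region and no shared one. Col6a5 and Col6a6 had a single WT-only region each. The strongest of the WT-only regions, chr1:90698378-90699107, lay 68.1 kb from Col6a3, with a WT pileup of 95, a fold of 15.3 and a −log10 q of 80.3, and no dKO peak within 35.1 kb. The strongest region of this class was shared, chr10:76732829-76733875 near Col6a1, with pileups of 412 and 154 and −log10 q of 167 and 76.7. Col28a1 had 2 dKO-only regions, 1 WT-only and 3 shared. Its counts were equal with genes limited to 20 kb and turned toward WT with q of 1e-05 or less, and all 3 single-list regions had −log10 q of 11.0 or less. The type VIII network genes Col8a1 and Col8a2 had 3 and 1 WT-only regions, 1 and 0 dKO-only regions and 3 and 4 shared ones. Of these, the WT-only region chr16:57757225-57757772 near Col8a1 had a pileup of 140 and a −log10 q of 58.0, and the shared region chr4:126300747-126302303 in Col8a2 had pileups of 212 and 90 and −log10 q of 93.0 and 45.3. Col26a1 had 1 dKO-only region, with a −log10 q of 5.50.

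Regions present in a single list were mostly weak peaks, in collagen genes as elsewhere. Ranked by −log10 q within its own list, 9 of the 70 collagen WT-only peaks were in the stronger 50% (12.9%, against 12.0% over all genes) and 4 of the 36 dKO-only peaks (11.1%, against 8.52%). Among fibrillar genes these were 5 of 23 and 2 of 12, whereas among basement membrane genes they were 0 of 15 and 0 of 9, counts that allow up to 20% and 33.3%. Regions in both lists also ranked lower at collagen genes than elsewhere, with a median percentile of 53.0 among WT and 49.8 among dKO peaks, against 62.0 and 59.3 over all genes. The strongest 20% of each list held 11.5% of collagen WT peaks and 13% of collagen dKO peaks, against 20.8% and 21.5% of all peaks assigned to genes. Within bins of equal strength, WT-only shares at collagen genes were 64.7%, 38.0%, 21.3%, 10.5% and 3.85% from the weakest to the strongest 20% of the WT list, and over all genes they were 58.2%, 38.9%, 19.9%, 5.78% and 0.691%. The collagen bins held 26 to 61 regions, so these differences rest on few regions.

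**Figure D4:**
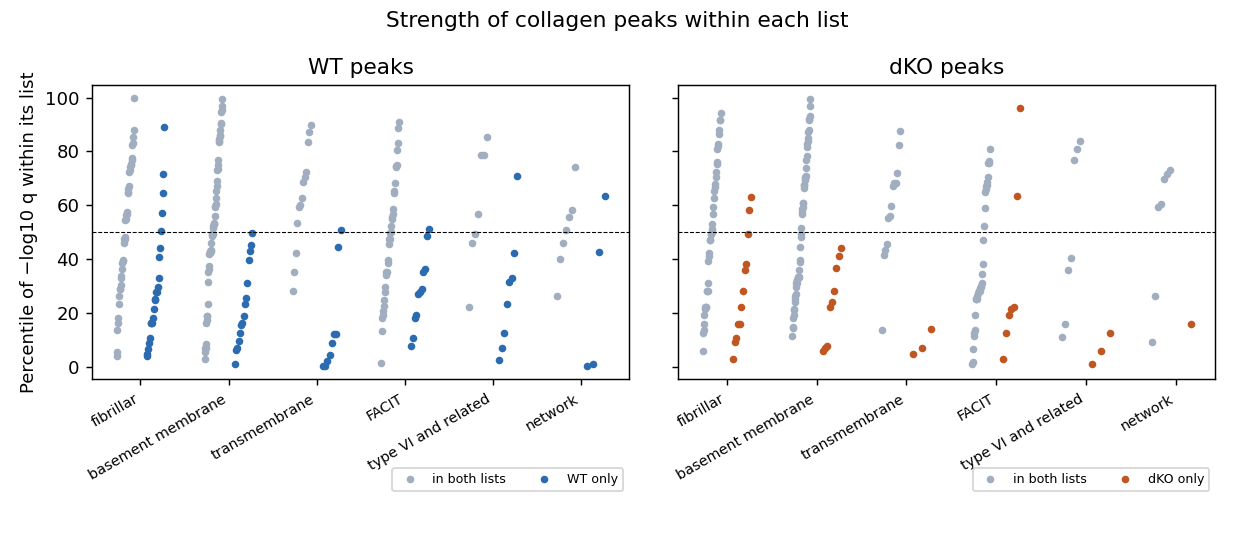
Strength of each collagen peak as the percentile of its −log10 q within its own list, by class, for the WT list (left) and the dKO list (right). Each point is a peak, grey where the region is in both lists and coloured where it is in that list alone, and the dashed line marks percentile 50; no coloured point of the basement membrane class lies above it.

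Shares were also read by position relative to the genes. Within collagen gene bodies 25% of 164 regions were WT-only and 14% dKO-only, against 25.5% and 14.3% over all genes. Outside the genes, 27 of 75 collagen regions were WT-only (36.0%, interval 26.1% to 47.3%), against 22.8% over all genes, and 13.3% were dKO-only, against 15.7%. At gene ends, within 1 kb of either end, 2 of 23 were WT-only (8.70%, against 6.04% over all genes), 3 were dKO-only (13%, interval 4.54% to 32.1%, against 3.55%) and 18 were shared (78.3%, against 90.4%). The dKO-only interval lay above the share over all genes, on 3 regions, those of the promoters of Col24a1, Col7a1 and Col9a2. WT-only regions of collagen genes lay a median of 8.08 kb from the nearest dKO peak, 8 of them within 1 kb and 30 beyond 10 kb. For dKO-only regions the median distance to a WT peak was 5.01 kb, with 5 of 36 within 1 kb and 12 beyond 10 kb. No such distances over all genes are given, so these counts have no background beside them.

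Other genes of the collagen pathway were read in the same way. Genes that cleave procollagen or crosslink fibrils had 53 regions, of which 22 were WT-only (41.5%, interval 29.3% to 54.9%), 3 dKO-only (5.66%, interval 1.94% to 15.4%, against 12.8% over all genes) and 28 shared. Of these 13 genes 8 had more WT-only regions, 0 had more dKO-only regions and 2 had no region. Of all genes with a region, 34.2% leaned toward WT and 16.5% toward dKO. Of all genes with at least 5 regions, which have more chances to differ, 56.8% and 25.9% did. The procollagen C-proteinase genes Tll1 and Tll2 had 4 and 3 WT-only regions and 0 dKO-only regions each. Small proteoglycans that bind fibrils had 30 regions, 13 WT-only (43.3%, interval 27.4% to 60.8%), 3 dKO-only (10.0%) and 14 shared, and 5 of the 8 genes had more WT-only regions while the other 3 had none at all. Prelp had 5 WT-only and 1 dKO-only region, and Bgn, which encodes biglycan, had 3 and 1. Genes that fold and modify collagen chains had 84 regions, 17 WT-only (20.2%), 8 dKO-only (9.52%) and 59 shared. Of these 17 genes 5 leaned toward WT and 2 toward dKO, near the 34.2% and 16.5% of all genes with a region. The prolyl 4-hydroxylase subunit genes P4ha1 and P4ha2 led these, with 6 WT-only and 1 dKO-only region and with 3 and 0. Collagen receptors had 68 regions, 8 WT-only (11.8%), 9 dKO-only (13.2%) and 51 shared, with 2 of 7 genes toward WT and 3 toward dKO. Proteases that degrade collagen had 19 regions, 3 WT-only (15.8%) and 16 shared, and 0 dKO-only, which allows up to 15.8%. The intervals of the WT-only shares of the processing and proteoglycan genes thus lay above the background of 21.2%, and those of the other 3 groups included it. These lists were chosen with earlier results of these data known, so the intervals only describe and do not serve as a test. Regions of 1 gene are also not independent, and Prelp alone held 15 of the 30 proteoglycan regions. No alternative setting is reported for these groups. The fibroblast markers had 38.1% of their regions WT-only, with an interval of 20.8% to 59.1% that included the background, and the proteoglycan list shares Dcn, with 1 WT-only region, and Lum, with no region, with them. The part of fibroblasts in these shares was not tested.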

How the data were processed

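Peak lists from ATAC-seq of hair follicle stem cells of 2 WT and 2 dKO mice were used, 1 deposited list for each genotype. The submitters' processing notes name Bowtie2 2.2.9, Picard and MACS2, with no role or order, and the builds mm10 and GRCm38. The way the mice were pooled is not given in the sources used here, nor is any shift of reads for the transposase or the handling of duplicates. Per the file headers, the lists hold the authors' peak coordinates, the pileup signal at each summit in reads or fragments, the fold, which is a ratio of pileup to local background, and −log10 p and −log10 q. Damaged header cells of the deposited −log10 columns were resolved by column order and by a Poisson p from pileup and background. It was within 0.001 of the deposited −log10 p for 99.981% of 62811 peaks (WT) and 99.997% of 62822 peaks (dKO), counting those under 250. All deposited q were 0.05 or less.

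Mitochondrial peaks (5 WT, 3 dKO) were removed. Peaks of the lists that shared 1 bp or more were merged, giving 79122 regions, and overlaps differed from those of bedtools 2.31.1 by 0. The summit of a region's strongest WT peak, or else of its dKO peak, decided the nearest of 21896 protein-coding gene bodies within 100 kb, in a RefSeq table of GRCm38.p6, which mm10 represents. Promoter windows and core motifs came from a RefSeq promoter table of that assembly. Shares carry Wilson 95% intervals, and the authors' values only describe, order or filter peaks of the same list. The merging was tested on simulated peaks. Python 3.11.15, pandas 2.3.3, scipy 1.17.1 and matplotlib 3.10.9 were used. Alternatives were a 50% overlap, summits within 200 bp, q of 1e-05 or less, equal list lengths, the stronger 50% of single-list peaks, WT scaled to the dKO background, genes within 20 kb, every gene within 10 kb, midpoints in place of summits, and ties given to every gene.

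The members and gene lists were chosen with earlier results of these data known. The naming rule took the 3 members with the largest surplus of WT-only over dKO-only regions and the 3 with the largest deficit, the strongest WT region of each class, the strongest single-list regions, promoters, and at most 2 genes per other list on each side whose counts differed by 2 or more. Members and regions named beyond these were chosen after their values were seen.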

Additional observations from a re-analysis of the deposited data

How the results depend on the processing

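No paired analysis was possible because each genotype has 1 list that pools its mice, and for the same reason no mouse could be left out. Under each alternative the WT-only collagen share was above the same share over all genes; outside the stronger 50% it ranged from 22.9% against 18.0% with lists of equal length to 31.5% against 25.8% with summits within 200 bp. Its interval lay above that share, which is not matched for position, in 6 of 10 alternatives and did not in 4. The 4 were q of 1e-05 or less (29.1% against 23.6%), the stronger 50%, genes within 20 kb (24.7% against 21.1%) and every gene within 10 kb (23.4% against 21.1%). The 6 include ties given to every gene, which changed no collagen count, and midpoints, which gave the same 70 WT-only regions. With lists of equal length the interval began at 18.1%, against 18.0%. With single-list peaks limited to the stronger 50% of a list, WT-only and dKO-only shares fell to 5.33% and 2.37% for all collagens, 10.4% and 4.17% for fibrillar, 0% and 0% for basement membrane and 7.14% and 0% for transmembrane genes, against 3.65% and 1.57% over all genes. With summits within 200 bp the collagen dKO-only share was 21.0%, against 19.2% over all genes. The difference of WT-only and dKO-only regions turned from 3 to -1 at Col17a1 with lists of equal length, and from -1 to 1 at Col19a1 and Col28a1 with q of 1e-05 or less, where fewer peaks entered. Of the gene differences under all alternatives, 291 stayed within 1.5 times the reported value, 96 moved further and 3 changed sign. The 291 include those under the rule for ties, which could change none because 0 collagen regions were tied between genes. Leaving out the Col19a1 region that overlaps Gm10222 in part, an alternative added after the data were seen, changed the collagen shares to 26.8% and 13.4%. The 2 lists give no error between mice.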

Other observations

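Regions near collagen genes can belong to a nearer neighbour. Within 10 kb of 11 collagen genes lay 17 further regions assigned to other genes. Col7a1, Col17a1 and Col8a2 had 3 each, 1 WT-only and 2 shared, assigned to Pfkfb4 and Uqcrc1, to Slk, and to Adprhl2 and Trappc3. The only dKO-only one lay near Col27a1 and was assigned to Orm1.

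The collagen promoter windows had a median GC content of 60.0%, against 56.3% over all windows. Those open in both lists had 62.5%, and those with no peak 54.0%, against 62.0% and 48.0% over all windows.

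The most isolated WT-only collagen region was the single region near Col6a5, chr9:105970809-105971379, with a WT pileup of 36, a −log10 q of 16.6 and no dKO peak within 177 kb. The most isolated dKO-only one was in Col9a1, chr1:24249068-24249363, with a dKO pileup of 14, a −log10 q of 4.75 and no WT peak within 53.2 kb.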
